A study of Mus musculus with 40 samples.

Results

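The 40 genes described here are genes that cells transcribe when they copy their DNA and divide. They are a list of symbols matched by name in the count table of 20295 genes. The match uses no measured value, but the list was chosen with earlier results of these data known. All 40 were in the table, and all 40 were among the 13277 genes that passed the filter on low counts.

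A dividing cell first loads the MCM helicase onto its origins of replication, then copies its DNA with the sliding clamp PCNA and with nucleotides made by ribonucleotide reductase, thymidylate synthase and thymidine kinase. It then enters mitosis under cyclin A and cyclin B with the kinase CDK1, attaches its chromosomes to a spindle built with kinesin motors, and separates them once CDC20 and UBE2C direct the anaphase-promoting complex to destroy securin and cyclin B. Transcripts of most of these genes are scarce in resting cells. In brown adipose tissue (BAT) proliferation is known mainly from precursor and vascular cells, because mature brown adipocytes rarely divide, and β-adrenergic stimulation is known to expand the tissue.

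Poly(A) RNA of BAT was sequenced from 40 male mice kept at 29 °C, which form 8 groups of 5. The first cohort held C-3BO mice, in which *Ucp1*-Cre switches on a CAG-driven *Gpr3* transgene at the ROSA26 locus (*Gpr3* TTG) in brown and beige adipocytes from early life, and control littermates that carried either the transgene without Cre or Cre without the transgene, all 13 to 19 weeks old. They ate chow or a high-fat diet (HFD, 60 kcal% fat, 7 days). The second cohort held 15-week-old mice that the labels call wildtype and the study's methods describe as control littermates of an inducible *Gpr3* line (I-3BO). They received the β3-adrenergic agonist CL-316,243 (CL, 1 mg/kg) or saline (10 µL/g) by intraperitoneal injection daily for 9 days, on chow or on HFD that began 2 days after the first injection, and tissue was taken the day after the last. The comparisons ask whether CL, C-3BO or diet changed the level of proliferation genes in brown fat.

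In 28 libraries totals lay between 7349348 and 15260516 counts. The other 12, which are all HFD saline and HFD CL libraries and replicates 4 and 5 of HFD C-3BO, held 849126 to 7284129 counts, with the liver transcript *Alb* at 62.2 to 294 CPM (counts scaled to a common library total) against at most 1.62 in the 28, and *Lcn8*, an epididymal gene, at 6.02 to 38.9 CPM against 0. In the injected mice diet therefore cannot be told apart from this set of libraries, while CL and saline on HFD were compared within it. The smallest library was HFD saline replicate 4, where 3 counts amount to 3.01 CPM and 6 of the 40 genes had no count. Defining genes of brown adipocytes were present in every group, with the summed level of 8 of them at a median of 9234 CPM in chow control mice. CPM here rest on library totals scaled by TMM, so they can be compared between mice for 1 gene.

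The genes were sorted by known role, not by their levels, into mitotic genes and others of replication, nucleotide supply and G1/S control. The sequence ahead of their start sites differed between these classes. Promoters of 33 of the 40 genes were matched by symbol in RefSeq (build GRCm38.p6), as windows of 300 bases from 250 before to 50 after the start. They were searched on both strands for TTTGAA, the core of the cell cycle homology region (CHR) bound by the DREAM complex, for CCAAT, bound by NF-Y, and for the E2F words TTTGGCGC, TTTGCCGC, TTTCGCGC and TTTCCCGC, none of which overlaps another. TTTGAA was in 15 of the 19 mitotic promoters (78.9%), in 2 of the 14 others (14.3%) and in 18.1% of all 27025 promoters. CCAAT was in 17 of the 19 (89.5%), 9 of the 14 (64.3%) and 37.9% of all. An E2F word was in 1 of the 19 (5.26%), in 5 of the 14 (35.7%), namely *Mcm3*, *Mcm5*, *Mcm6*, *Mcm7* and *Cdc6*, and in 2.32% of all. These matches are descriptions of letters in a window and not sites shown to be bound. *Ccne2*, *Mcm4*, *Ccna2*, *Kif20a*, *Foxm1*, *Tpx2* and *Aurkb* had no entry in the table used.

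The stretches below are the 150 bases before the start of the 6 genes with the largest fold change, among called genes with an entry, in the comparison that called most of the 40, HFD against chow in CL mice. They are shown for the position of these words in genes picked because they were called, all higher, in that comparison. Capitals mark TTTGAA or CCAAT on either strand, and each is written 5′ to 3′ on the strand of its gene.
*Bub1* (spindle checkpoint kinase, chr2:127831860-127832009, GRCm38.p6, minus strand): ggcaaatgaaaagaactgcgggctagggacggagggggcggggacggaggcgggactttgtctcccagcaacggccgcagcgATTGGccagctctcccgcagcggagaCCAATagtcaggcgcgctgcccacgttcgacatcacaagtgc
*Cdc20* (activator of the anaphase-promoting complex, chr4:118437344-118437493, GRCm38.p6, minus strand): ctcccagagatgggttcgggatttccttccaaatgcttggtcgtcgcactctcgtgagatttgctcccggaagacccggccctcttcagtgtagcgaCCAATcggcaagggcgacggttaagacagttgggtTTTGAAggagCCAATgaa
*Kif11* (spindle pole motor, chr19:37376232-37376381, GRCm38.p6, plus strand): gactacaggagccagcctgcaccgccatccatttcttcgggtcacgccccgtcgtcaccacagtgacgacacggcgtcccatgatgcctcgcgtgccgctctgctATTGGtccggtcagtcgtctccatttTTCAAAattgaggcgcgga
*Ccnb2* (mitotic cyclin, chr9:70421555-70421704, GRCm38.p6, minus strand): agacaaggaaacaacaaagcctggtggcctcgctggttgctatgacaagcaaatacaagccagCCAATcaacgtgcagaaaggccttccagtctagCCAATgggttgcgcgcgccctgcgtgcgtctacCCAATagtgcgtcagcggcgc
*Kif23* (cytokinesis motor, chr9:61946800-61946949, GRCm38.p6, minus strand): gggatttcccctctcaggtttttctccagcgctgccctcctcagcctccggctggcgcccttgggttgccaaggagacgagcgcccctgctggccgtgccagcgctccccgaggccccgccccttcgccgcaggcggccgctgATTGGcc
*Top2a* (DNA topoisomerase, chr11:99024190-99024339, GRCm38.p6, minus strand): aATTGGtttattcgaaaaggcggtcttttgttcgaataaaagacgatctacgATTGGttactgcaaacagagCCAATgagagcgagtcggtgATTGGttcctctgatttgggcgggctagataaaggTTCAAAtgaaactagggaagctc

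TTTGAA lay within these 150 bases in *Cdc20*, *Kif11* and *Top2a*, starting 18, 19 and 23 bases before the start site. *Top2a* held 4 copies of CCAAT, *Ccnb2* 3, *Bub1* and *Cdc20* 2, and *Kif11* and *Kif23* 1.

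Levels were compared between genes per kb of transcript. *Pcna* stood first at a mean of 13.2 CPM per kb of exon over the 40 mice, followed by *Mcm7* at 6.14 and *Cdc45*, which helps to unwind DNA at the fork, at 3.53 CPM per kb. The lowest were *Ccnb1* at 0.302, *Hmmr* at 0.233 and *Bub1* at 0.182 CPM per kb, with a median of 4, 6.5 and 4 counts per library. *Mki67*, the source of the proliferation antigen Ki-67, stood at 1.18 and *Top2a* at 1.46 CPM per kb, with median counts of 78.5 and 44.5. Together the 40 genes gave between 277 and 3545 counts per library.

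The 40 genes were lowest in chow C-3BO mice and highest in HFD CL mice. The mean of their log2 CPM was 0.76 ± 0.10 (SD, n = 5 throughout) in chow C-3BO mice, 1.73 ± 0.29 in chow control, 1.91 ± 0.46 in HFD control and 1.37 ± 0.088 in C-3BO mice given HFD. Among injected mice it was 1.37 ± 0.26 in chow saline, 1.57 ± 0.26 in chow CL, 2.04 ± 0.37 in HFD saline and 2.75 ± 0.20 in HFD CL mice. No chow C-3BO mouse, at 0.62 to 0.88, reached the lowest mouse of any other group, which was a chow saline mouse at 1.06. The HFD CL mice, at 2.42 to 2.92, overlapped with HFD saline by 1 mouse, at 2.44, and lay above the mice of all other groups. HFD C-3BO replicates 4 and 5, at 1.37 and 1.38, lay among replicates 1 to 3, at 1.23, 1.46 and 1.42. Because this is bulk tissue, fewer dividing cells and less RNA of these genes per cell cannot be told apart.

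**Figure D1:**
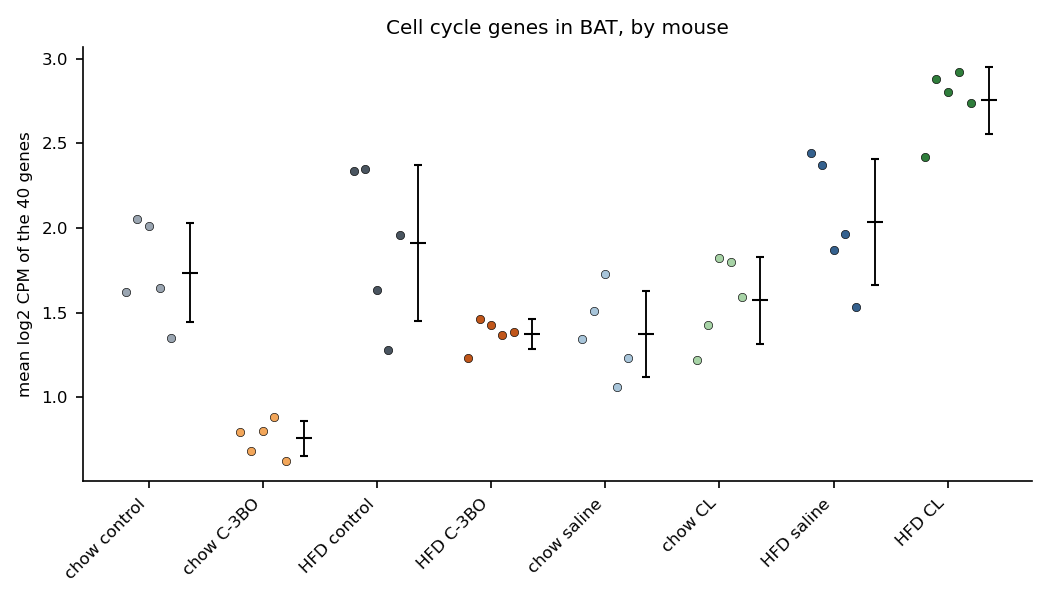
Mean log2 CPM of the 40 genes (y axis) in each of the 5 mice of each group (x axis, points), with the group mean and SD beside the points. Chow C-3BO mice sit between 0.62 and 0.88 and HFD CL mice between 2.42 and 2.92.

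**Figure D2:**
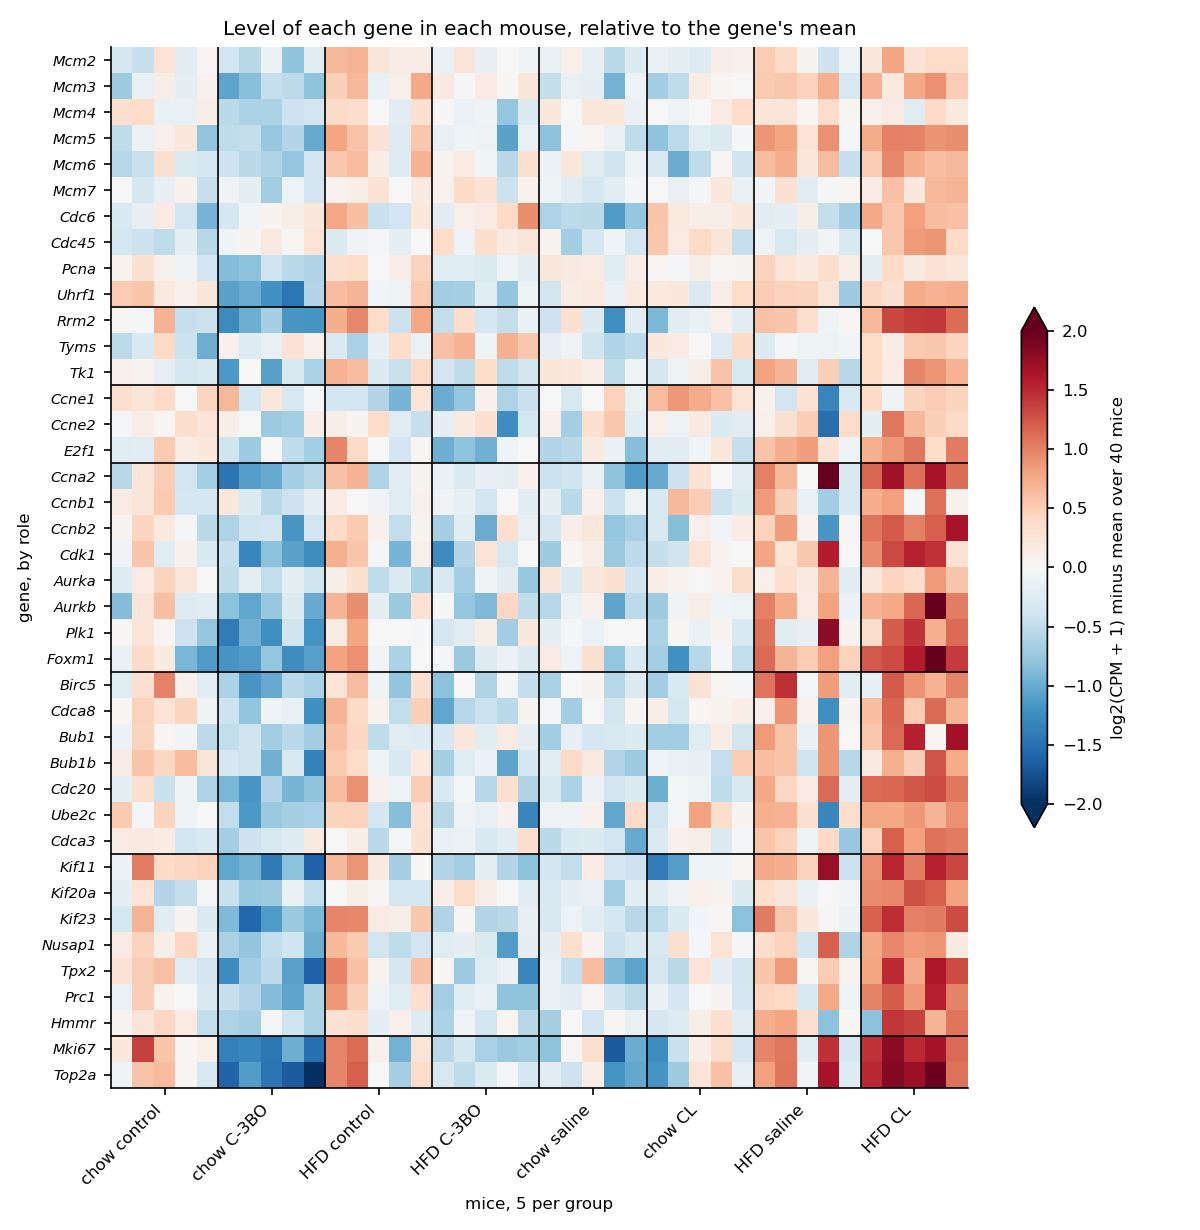
Level of each of the 40 genes (rows, in order of role from replication at the top to chromosome proteins at the bottom, lines between roles) in each of the 40 mice (columns, lines between groups), as log2(CPM + 1) minus the gene's mean over the mice, with colours ending at 2 and -2. Chow C-3BO columns are blue and HFD CL columns red across most mitotic genes.

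With CL on chow 2 of the 40 genes were called, a smaller share than that of all genes. *Cdc6*, the factor that loads the MCM helicase onto origins, was 2.52-fold higher, and *Cdc45* 1.45-fold. The counts were 2 higher and 0 lower (adjusted p under 0.05, edgeR quasi-likelihood test), against 9.16% and 6.13% of all genes tested. The median log2 fold change of the 40 was 0.19, against -0.0052 over all genes, and 31 of 40 were above 0.

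*Cdc6* lay at 1.73, 1.89, 1.88, 0.913 and 1.45 CPM in chow saline mice and at 5.11, 3.79, 3.60, 3.53 and 3.88 CPM in chow CL mice (log2 fold change 1.33 ± 0.29 (SE throughout), adjusted p = 0.00127). All 5 CL mice were above all 5 saline mice. *Cdc45* lay at 7.67, 4.12, 5.54, 6.90 and 5.36 CPM in saline and 11.0, 8.30, 9.88, 8.86 and 5.01 CPM in CL mice (log2 fold change 0.54 ± 0.17, adjusted p = 0.0295), with 1 CL mouse inside the range of the saline mice.

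*Mki67* and *Top2a*, transcribed from S phase to mitosis, spread widely in both groups and did not pass the test. *Mki67* lay at 4.86, 9.36, 11.9, 2.23 and 4.17 CPM in saline and 3.34, 6.52, 10.2, 12.0 and 7.08 CPM in CL mice (log2 fold change 0.28 ± 0.38, adjusted p = 0.68). *Top2a* lay at 4.75, 4.01, 6.35, 1.93 and 2.30 CPM in saline and 1.97, 3.08, 7.02, 9.08 and 5.01 CPM in CL mice (log2 fold change 0.46 ± 0.40, adjusted p = 0.49). The ranges overlapped for both. With the 2-fold limit 1 gene, *Cdc6*, was called, against 2.58% of all genes, and the count was also 1 without chow saline replicate 2, 3 or 5 or without chow CL replicate 1, 3 or 4. Skeletal muscle genes (6 of 7) were lower with CL on chow, with summed levels of 8.23 to 2073 CPM in saline and 8.63 to 114 CPM in CL mice, and their part in the result was not tested.

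On HFD, 38 of the 40 genes were above 0 with CL. Of the 40, 11 were higher and 0 lower, against 12.7% and 10.8% of all genes, with a median log2 fold change of 0.72 against -0.010 over all genes. By role 3 of 10 replication fork genes, 1 of 3 nucleotide genes, 1 of 8 mitotic cyclins and kinases, 2 of 7 checkpoint and anaphase genes, 3 of 7 spindle genes and 1 of the 2 chromosome proteins were higher, and 0 of 3 G1/S genes. Some of these roles rest on 1 gene, and 1 of 8 is no more than the 12.7% of all genes. Both genes called on chow, *Cdc6* and *Cdc45*, were called again, and the overlap of calls over all genes was not computed. With the 2-fold limit 6 were higher, against 4.11% of all genes. Of 8 macrophage genes 3 were lower and none higher in the same comparison, with summed levels of 170 to 392.0 CPM in saline and 69.1 to 185 CPM in CL mice, and 2 of 7 endothelial genes were higher, from 1301 to 1423 CPM in saline to 1483 to 1991 CPM in CL mice. Their part in the result was not tested.

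*Kif20a*, a kinesin of the central spindle whose gene overlaps *Brd8* and *Cdc23* on the other strand, lay at 4.13, 3.78, 2.67, 3.01 and 2.86 CPM in HFD saline and 6.73, 6.79, 8.72, 8.25 and 5.99 CPM in HFD CL mice (log2 fold change 1.12 ± 0.23, adjusted p = 0.000356). *Cdc45* lay at 6.75, 5.67, 6.31, 7.02 and 5.72 CPM in saline and 7.23, 11.0, 14.0, 14.4 and 9.99 CPM in CL mice (log2 fold change 0.86 ± 0.19, adjusted p = 0.000932). *Prc1*, which bundles the microtubules of the central spindle, lay at 6.20, 5.98, 3.27, 8.02 and 3.97 CPM in saline and 9.58, 11.4, 8.72, 14.7 and 9.63 CPM in CL mice (log2 fold change 1.08 ± 0.25, adjusted p = 0.00137). For these genes and for *Cdc6*, every CL mouse was above every saline mouse. *Cdc6* lay at 2.62, 2.68, 3.52, 2.01 and 1.59 CPM in saline and 6.05, 5.09, 6.40, 5.45 and 5.27 CPM in CL mice (log2 fold change 1.12 ± 0.30, adjusted p = 0.00593).

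*Cdca3*, which triggers mitotic entry through destruction of WEE1, lay at 3.44, 3.15, 1.82, 3.01 and 0.794 CPM in saline and 3.19, 5.94, 4.36, 5.45 and 5.27 CPM in CL mice (log2 fold change 1.04 ± 0.32, adjusted p = 0.0157), and *Mcm7*, a subunit of the MCM helicase, lay at 13.8, 17.9, 12.3, 14.0 and 14.8 CPM in saline and 16.1, 22.1, 16.9, 23.3 and 23.6 CPM in CL mice (log2 fold change 0.49 ± 0.15, adjusted p = 0.016). In both genes 1 or more CL mice fell inside the saline range. *Top2a* passed the test while *Mki67* did not. *Top2a* lay at 10.9, 13.1, 5.46, 20.1 and 4.60 CPM in saline and 18.0, 22.9, 20.9, 25.1 and 13.3 CPM in CL mice (log2 fold change 1.06 ± 0.40, adjusted p = 0.049), and *Mki67* at 19.1, 20.1, 7.76, 27.1 and 7.14 CPM in saline and 26.7, 34.6, 27.9, 31.5 and 21.4 CPM in CL mice (log2 fold change 0.93 ± 0.38, adjusted p = 0.0676). The highest saline value of both belonged to replicate 4, the smallest library. *Rrm2*, *Cdc20*, *Kif23* and *Ccnb2* were the other genes called, at log2 fold changes of 0.98, 0.96, 0.95 and 1.29.

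Without HFD saline replicate 4 the count for CL on HFD was 12. It fell to 4 without HFD saline replicate 3, to 5 without saline replicate 5, to 6 without HFD CL replicate 2 or 4 to 7 without CL replicate 1 or 3, and to 5 with library totals alone. Of the 11 genes 6 had no overlap between the groups. Called genes tend to separate by their selection, and the share of all genes without overlap was not computed in any comparison.

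C-3BO mice on chow had lower levels of most of these genes. Of the 40 genes 24 were lower and 1, *Cdc45*, was higher, against 15.9% and 15.8% of all genes, and the median log2 fold change was -1.21 against -0.032 over all genes. Lower were 6 of 8 mitotic cyclins and kinases, 6 of 7 checkpoint and anaphase genes, 5 of 7 spindle genes and both chromosome proteins, with role medians from -1.40 to -2.31. In replication, 4 of 10 fork genes and 1 of 3 nucleotide genes were lower, with medians of -0.49 and -0.77, and none of the 3 G1/S genes was called. With the 2-fold limit 20 were lower, against 7.19% of all genes in either direction. Skeletal muscle transcripts in the tissue differed widely between these mice, with a summed level of 7 muscle genes from 621 to 7893 CPM in chow control and from 325 to 3109 CPM in chow C-3BO mice, 0 of the 7 called. Of 7 endothelial genes 2 were lower (806 to 1199 CPM against 518 to 1036 CPM), and 1 of 6 mural genes was higher. Among preadipocyte and fibroblast genes only *Cd34* (-1.30 ± 0.22) and *Pdgfrb* (-0.37 ± 0.13) were called, both lower, while the others went in both directions. The part of all these cells in the result was not tested.

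*Uhrf1*, which maintains DNA methylation behind the fork, lay at 11.0, 11.3, 8.62, 7.99 and 8.92 CPM in chow control and 3.01, 3.24, 2.63, 2.10 and 4.58 CPM in chow C-3BO mice (log2 fold change -1.63 ± 0.23, adjusted p = 1.30e-06). *Pcna* lay at 17.0, 20.3, 17.2, 15.5 and 12.2 CPM in control and 8.44, 8.80, 12.1, 10.8 and 10.3 CPM in C-3BO mice (log2 fold change -0.70 ± 0.12, adjusted p = 3.18e-05). *Kif11* lay at 2.64, 6.99, 4.14, 4.24 and 4.39 CPM in control and 0.904, 1.04, 0.478, 1.22 and 0.286 CPM in C-3BO mice (log2 fold change -2.46 ± 0.44, adjusted p = 4.22e-05). All 5 C-3BO mice were below all 5 control mice for each of these.

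*Top2a* (mm9 chr11:98854261-98885503) lay at 5.29, 9.02, 9.40, 5.91 and 4.39 CPM in control and 1.21, 2.08, 1.43, 1.11 and 0 CPM in C-3BO mice (log2 fold change -2.49 ± 0.47, adjusted p = 0.000101), and *Mki67* (mm9 chr7:142881471-142908062) at 10.8, 25.4, 14.0, 9.52 and 9.98 CPM in control and 3.01, 3.12, 2.75, 4.21 and 2.58 CPM in C-3BO mice (log2 fold change -2.14 ± 0.41, adjusted p = 0.000115). *Kif23* lay at 1.32, 3.75, 1.57, 2.08 and 1.46 CPM in control and 0.603, 0, 0.358, 0.775 and 0.573 CPM in C-3BO mice (log2 fold change -2.13 ± 0.43, adjusted p = 0.000212). Again no C-3BO mouse reached the lowest control mouse. The 1 gene that was higher, *Cdc45*, lay at 5.54, 5.17, 4.81, 6.25 and 4.66 CPM in control and 6.78, 7.64, 8.36, 7.42 and 9.02 CPM in C-3BO mice (log2 fold change 0.56 ± 0.18, adjusted p = 0.0147), without overlap.

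The other 18 lower genes ran from -0.66 (*Aurka*) to -2.47 (*Bub1*) in log2 fold change. Among them were the mitotic kinases *Cdk1* at -1.90, *Plk1* at -1.98 and *Aurkb* at -1.68, the passenger proteins *Birc5* at -2.42 and *Cdca8* at -1.33, and the anaphase genes *Cdc20* at -1.51 and *Ube2c* at -1.88. *Foxm1*, the transcription factor of mitotic genes, stood at -1.44. Counts in chow C-3BO mice were 1, 2, 0, 1 and 0 for *Bub1* and 3, 0, 1, 5 and 3 for *Birc5*. For *Plk1* they were 0, 3, 1, 9 and 1, so the sizes of these fold changes are uncertain. Of the 24 lower genes 16 had no overlap between the groups, a description of called genes without a share over all genes. The count of called genes stayed between 20 and 26 when any 1 library was left out, and was 23 without the 10 HFD libraries of injected mice.

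On HFD the C-3BO mice also had lower levels, over fewer genes. Of the 40, 14 were lower and 1, *Tyms*, the thymidylate synthase gene, was higher, against 15.5% and 19.3% of all genes, with a median log2 fold change of -0.70 against -0.017 over all genes. Lower were 5 of 10 fork genes, 1 of 3 nucleotide genes, *E2f1* among the G1/S genes, 2 of 7 checkpoint and anaphase genes, 4 of 7 spindle genes and *Mki67*, but 0 of the 8 mitotic cyclins and kinases. Of these 14 genes 11 (78.6%) were among the 24 lower on chow, and they made up 45.8% of those. The matching overlap over all genes was not computed. With the 2-fold limit 7 were lower, against 7.43% of all genes. Among preadipocyte and fibroblast genes only *Cd34* (-1.11 ± 0.21) and *Pdgfrb* (-0.52 ± 0.13) were called, both lower, while the others went in both directions. All 8 liver genes and 3 of 3 epididymal genes were higher in this comparison, endothelial genes (5 of 7) were lower, at 1348 to 1497 CPM against 1628 to 2117 CPM in control mice, and so were mural genes (4 of 6), at 701 to 800.1 CPM against 801 to 1008 CPM. Their part in the result was not tested.

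*Uhrf1* lay at 11.9, 12.4, 7.07, 6.80 and 11.1 CPM in HFD control and 4.22, 4.29, 6.12, 3.87 and 6.96 CPM in HFD C-3BO mice (log2 fold change -0.95 ± 0.22, adjusted p = 0.000921). *Pcna* lay at 20.5, 21.2, 16.4, 17.9 and 22.4 CPM in control and 13.6, 13.5, 13.1, 15.3 and 14.1 CPM in C-3BO mice (log2 fold change -0.50 ± 0.12, adjusted p = 0.00126), and *Prc1* at 8.71, 6.40, 3.98, 3.47 and 5.72 CPM in control and 2.31, 3.50, 3.79, 2.04 and 2.05 CPM in C-3BO mice (log2 fold change -1.01 ± 0.25, adjusted p = 0.00167). Only *Pcna* of these had no overlap. *Kif23* had none either, at 4.82, 4.80, 2.34, 2.22 and 3.34 CPM in control and 0.952, 2.03, 0.978, 1.02 and 1.64 CPM in C-3BO mice (log2 fold change -1.38 ± 0.36, adjusted p = 0.00294).

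*E2f1*, a transcription factor for entry into S phase, lay at 7.05, 4.36, 3.09, 2.14 and 3.22 CPM in control and 1.09, 1.35, 1.10, 2.85 and 3.07 CPM in C-3BO mice (log2 fold change -1.15 ± 0.33, adjusted p = 0.00682). *Tyms* lay at 3.38, 2.40, 3.78, 5.91 and 3.93 CPM in control and 7.07, 7.68, 4.04, 7.74 and 6.76 CPM in C-3BO mice (log2 fold change 0.77 ± 0.23, adjusted p = 0.00895). *Mki67* passed the test here and *Top2a* did not, with wide spread in the control mice and a narrow range in the C-3BO mice. *Mki67* lay at 19.1, 21.2, 9.82, 4.29 and 11.2 CPM in control and 5.98, 7.00, 5.50, 5.09 and 5.33 CPM in C-3BO mice (log2 fold change -1.17 ± 0.39, adjusted p = 0.0171), and *Top2a* at 12.2, 14.3, 5.77, 3.25 and 7.63 CPM in control and 4.35, 3.73, 4.53, 5.50 and 4.30 CPM in C-3BO mice (log2 fold change -0.95 ± 0.40, adjusted p = 0.064).

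Without HFD C-3BO replicates 4 and 5, whose libraries held liver transcripts, 7 genes were lower and 0 higher. The count of 15 fell to 6 without HFD control replicate 1 and to 8 without HFD control replicate 2, the mice with the highest mean level of the 40 genes in their group.

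**Figure D3:**
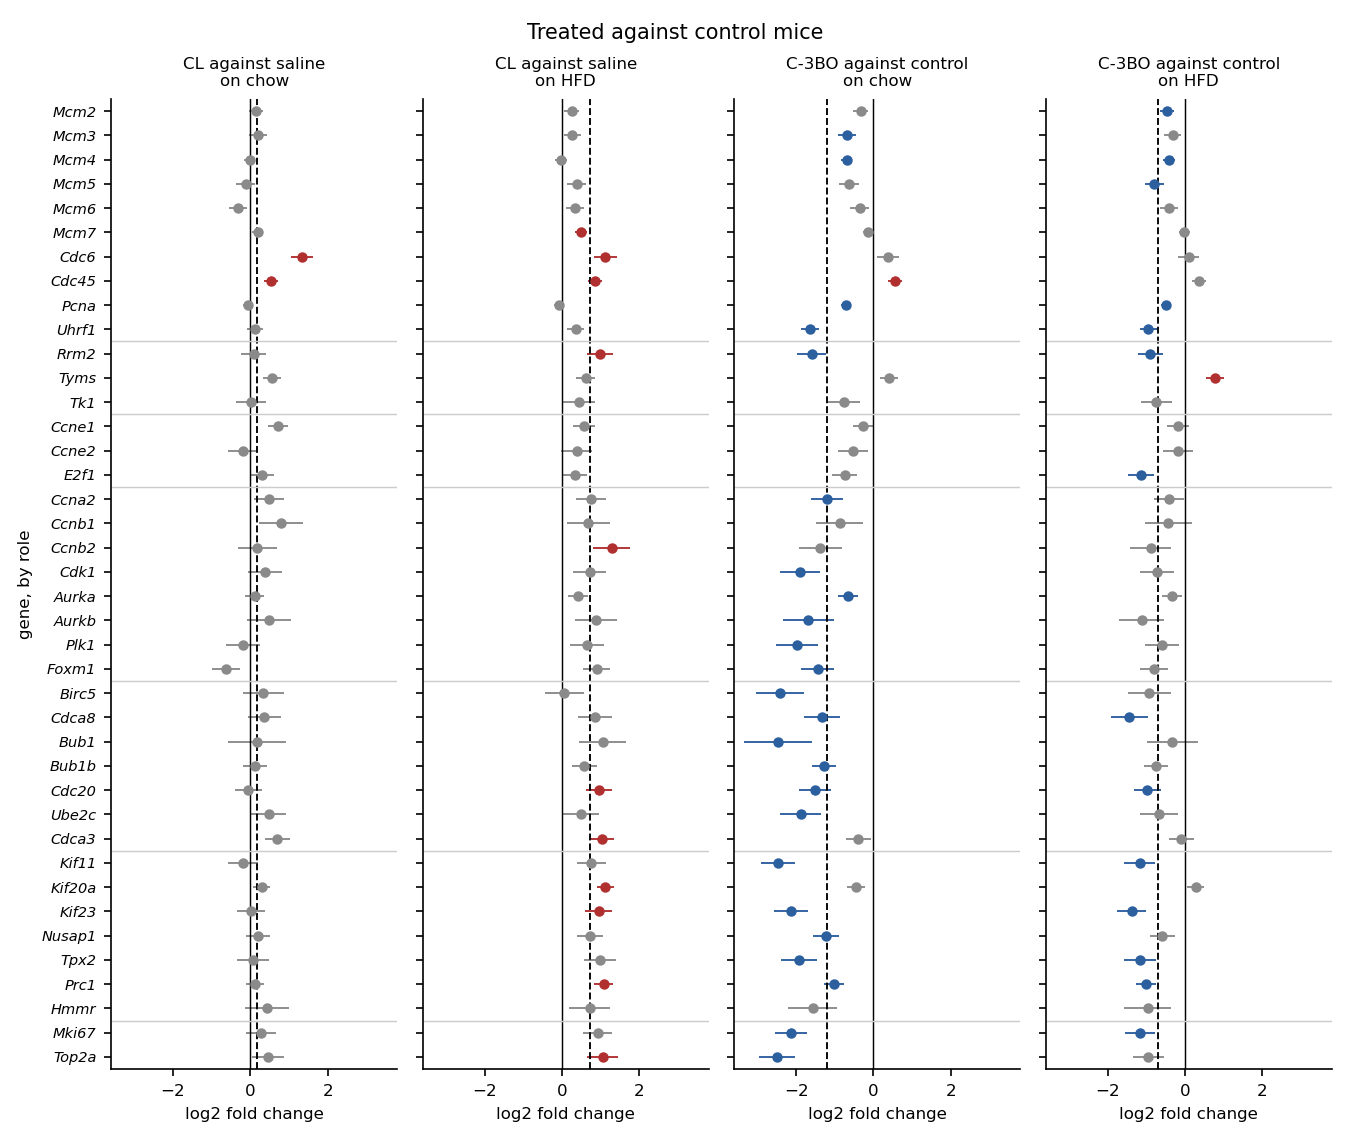
Log2 fold change (x axis, bars are SE) of each of the 40 genes (y axis, in order of role) for the CL and the C-3BO comparison, each on chow and on HFD. Red points were called higher and blue points lower, the solid line is 0 and the dashed line the median, which lies at 0.19, 0.72, -1.21 and -0.70 from left to right.

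The effects of C-3BO and CL on these genes differed. On chow the effect of C-3BO minus that of CL was below 0 for 39 of the 40 genes, and 14 passed the test, all lower, against 6.24% of all genes in either direction. The median difference of log2 fold changes was -1.40, against -0.030 over all genes. The differences were -2.95 ± 0.62, adjusted p = 0.00302 for *Top2a*, -2.42 ± 0.56, adjusted p = 0.00647 for *Mki67* and -1.75 ± 0.31, adjusted p = 0.000478 for *Uhrf1*. *Cdc45*, which CL and C-3BO both raised, gave a difference of 0.02 ± 0.25, adjusted p = 0.998. Of the 14, 3 were fork genes (*Uhrf1*, *Pcna*, *Mcm4*), 1 was a nucleotide gene (*Rrm2*) and 10 were mitotic. The count was 6 without chow saline replicate 1, 7 without saline replicate 4 or C-3BO replicate 2, 8 without control replicate 3, saline replicate 5 or CL replicate 4 or 5, and 9 without control replicate 2, C-3BO replicate 4 or 5, or CL replicate 3.

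On HFD the same difference was below 0 for 39 genes and 7 passed, all lower, against 1.8% of all genes, with a median of -1.21 against 0.021. They were *Prc1* (-2.09 ± 0.35, adjusted p = 0.000944), *Kif23* (-2.33 ± 0.50, adjusted p = 0.0093), *Uhrf1* (-1.31 ± 0.32, adjusted p = 0.0225), *Rrm2*, *Cdc20*, *Mki67* (-2.10 ± 0.54, adjusted p = 0.0313) and *Tpx2*. *Top2a* stood at -2.01 ± 0.57, adjusted p = 0.0551. The count was 2 without HFD control replicate 2, 3 without saline replicate 5 or CL replicate 4, 4 without control replicate 1 or saline replicate 3, 13 without control replicate 4, 5 without C-3BO replicates 4 and 5, and 8 without saline replicate 4, the smallest library. The 2 effects were measured in separate cohorts, so these differences hold the differences between the cohorts too.

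Neither treatment effect was shown to differ between the diets. For C-3BO, 0 of the 40 genes passed in edgeR, against 2.09% of all genes, and 0 in DESeq2, and the median difference was 0.51. For CL the counts were also 0 and 0, against 0.0151% of all genes in edgeR, and the median was 0.41. For each effect 4 genes had an unadjusted p under 0.05 in edgeR, and the share of all genes at that limit was not computed. *Mki67* gave 0.97 ± 0.56, adjusted p = 0.432 for C-3BO and 0.65 ± 0.53, adjusted p = 0.73 for CL. *Top2a* gave 1.54 ± 0.63, adjusted p = 0.21 for C-3BO and 0.60 ± 0.57, adjusted p = 0.777 for CL.

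In control mice the HFD called 5 of the 40 genes higher and 1 lower, shares below the 15.4% and 17.5% of all genes, with a median log2 fold change of 0.21 against 0 over all genes. Higher were *Mcm2*, *Mcm3*, *Mcm5*, *Mcm6* and *Cdc20*, and the lower gene was *Ccne1*, the cyclin of the G1/S transition. With the 2-fold limit 0 passed, against 6.12% of all genes, and 11 genes had an unadjusted p under 0.05 in edgeR. The share of all genes at that unadjusted limit was not computed. It cannot be below the 15.4% and 17.5% together that passed the adjusted threshold. In the same comparison endothelial genes (7 of 7) were higher, from 806 to 1199 CPM on chow to 1628 to 2117 CPM on HFD, as were mural genes (6 of 6), from 424 to 556 CPM to 801 to 1008 CPM. Skeletal muscle genes (7 of 7) were lower, from 621 to 7893 CPM to 4.46 to 180 CPM, and the part of these cells in the result was not tested.

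*Mcm2* rose from 6.35 ± 1.56 CPM on chow (mean ± SD) to 9.47 ± 1.96 CPM on HFD (log2 fold change 0.58 ± 0.18, adjusted p = 0.0106). By mouse it lay at 5.29, 4.76, 8.62, 5.91 and 7.19 CPM on chow and 11.4, 11.7, 8.45, 7.84 and 7.87 CPM on HFD, and 3 of the 5 HFD mice fell inside the chow range. *Mcm6* lay at 4.63, 5.17, 9.40, 5.84 and 5.59 CPM on chow and 11.2, 11.8, 8.31, 5.99 and 12.6 CPM on HFD (log2 fold change 0.70 ± 0.22, adjusted p = 0.0125). *Mcm3* lay at 3.88, 6.18, 7.72, 5.97 and 7.45 CPM on chow and 10.1, 11.6, 6.25, 7.61 and 12.5 CPM on HFD (log2 fold change 0.63 ± 0.22, adjusted p = 0.0225). The groups overlapped for every gene called here.

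*Mcm5* lay at 3.47, 4.86, 5.82, 6.46 and 2.66 CPM on chow and 10.0, 8.45, 6.73, 4.29 and 8.22 CPM on HFD (log2 fold change 0.68 ± 0.24, adjusted p = 0.0265), and *Ccne1* at 5.29, 4.86, 5.60, 4.03 and 5.72 CPM on chow and 2.81, 2.84, 2.34, 1.63 and 5.01 CPM on HFD (log2 fold change -0.82 ± 0.26, adjusted p = 0.0148). *Cdc20*, whose gene overlaps *Elovl1* on the other strand, lay at 1.40, 2.43, 1.01, 1.60 and 0.799 CPM on chow and 3.24, 4.18, 1.92, 1.55 and 2.86 CPM on HFD (log2 fold change 0.89 ± 0.33, adjusted p = 0.0319). *Mki67* and *Top2a* did not pass, at 13.9 ± 6.65 and 13.1 ± 6.98 CPM for *Mki67* (log2 fold change -0.085 ± 0.35, adjusted p = 0.885) and 6.80 ± 2.27 and 8.63 ± 4.55 CPM for *Top2a* (log2 fold change 0.34 ± 0.38, adjusted p = 0.526), chow first. The count was 3 without chow control replicate 1, HFD control replicate 2 or HFD control replicate 5, and 13 with library totals alone. The sign for *Mki67* turned without chow control replicate 2 (0.25), which held its highest value, without HFD control replicate 4 (0.13) and with library totals alone (0.11).

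In C-3BO mice the HFD raised genes of replication and of mitosis. Of the 40 genes 13 were higher and 0 lower, against 13.5% and 12.2% of all genes, with a median log2 fold change of 0.62 against 0.027. Higher were 5 of 10 fork genes, 1 of 3 nucleotide genes, 3 of 8 mitotic cyclins and kinases, 1 of 7 checkpoint and anaphase genes, 2 of 7 spindle genes and *Top2a*, and 7 passed the 2-fold limit, against 5.8% of all genes. *Mcm3*, *Mcm6* and *Cdc20* were called in control mice too, 3 of the 5 genes higher there (60%) and 23.1% of the 13. No such overlap was computed over all genes. Endothelial genes (6 of 7) were higher, from 518 to 1036 CPM on chow to 1348 to 1497 CPM on HFD, 2 of 6 mural genes were higher and 7 of 7 skeletal muscle genes were lower, from 325 to 3109 CPM to 4.16 to 60 CPM, and their part in the result was not tested. All 8 liver genes and 3 of 3 epididymal genes were higher in this comparison, and 10 of the 40 genes were called, all higher, without replicates 4 and 5, whose libraries held these transcripts.

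*Mcm3* rose from 3.85 ± 0.794 CPM on chow to 7.68 ± 0.640 CPM on HFD (log2 fold change 0.98 ± 0.24, adjusted p = 0.00205). *Top2a* rose from 1.17 ± 0.755 to 4.48 ± 0.645 CPM (log2 fold change 1.88 ± 0.50, adjusted p = 0.00494), and 1 chow mouse had no *Top2a* count. *Pcna* rose from 10.1 ± 1.49 to 13.9 ± 0.841 CPM (log2 fold change 0.46 ± 0.13, adjusted p = 0.00673). For these genes and for *Rrm2* every HFD mouse was above every chow mouse. *Rrm2*, the regulated subunit of ribonucleotide reductase, lay at 0.753, 1.16, 1.67, 0.886 and 0.859 CPM on chow and 2.04, 4.40, 2.32, 2.04 and 2.87 CPM on HFD (log2 fold change 1.35 ± 0.39, adjusted p = 0.00832).

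By mouse *Mcm3* lay at 2.86, 3.47, 4.78, 4.54 and 3.58 CPM on chow and 8.02, 6.89, 7.95, 7.13 and 8.40 CPM on HFD. *Kif20a* lay at 1.96, 1.39, 1.43, 2.66 and 1.86 CPM on chow and 3.40, 4.18, 3.42, 3.06 and 2.46 CPM on HFD (log2 fold change 0.84 ± 0.24, adjusted p = 0.00732). *Plk1*, the polo kinase of mitosis, lay at 0, 0.347, 0.119, 0.996 and 0.143 CPM on chow and 1.09, 1.24, 1.83, 0.611 and 2.05 CPM on HFD (log2 fold change 1.95 ± 0.56, adjusted p = 0.00903). For both of the latter 1 or more HFD mice fell inside the chow range. *Mki67* had no overlap between 3.13 ± 0.637 CPM on chow and 5.78 ± 0.755 CPM on HFD and did not pass (log2 fold change 0.88 ± 0.44, adjusted p = 0.141). Without HFD C-3BO replicate 2 the count was 8, and with library totals alone 20.

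In saline-injected mice the HFD libraries had more of most of these transcripts. Of the 40 genes 14 were higher and 0 lower, against 7.45% and 8.04% of all genes, with a median log2 fold change of 0.83 against -0.013, and 12 passed the 2-fold limit, against 3.62% of all genes. Higher were 2 of 10 fork genes, *E2f1*, 3 of 8 mitotic cyclins and kinases, 4 of 7 checkpoint and anaphase genes, 2 of 7 spindle genes and both chromosome proteins, and 0 of 3 nucleotide genes. Macrophage genes were higher (7 of 8, with 1 lower), at 82.2 to 151 CPM on chow and 170 to 392.0 CPM on HFD, and so were 3 of 7 endothelial genes, all 8 liver genes, at 0.894 to 1.95 CPM and 84.2 to 240.2 CPM, and all 3 epididymal genes tested. Their part in the result was not tested. Only *Bub1* and *Foxm1* had no overlap between the groups, and the share of all genes without overlap was not computed. Counts of *Bub1* were 0, 4, 3, 3 and 4 on chow and 14, 9, 4, 2 and 4 on HFD, so its separation is uncertain.

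*Ccna2*, whose gene overlaps *Exosc9* on the other strand, lay at 2.27, 2.34, 2.95, 1.52 and 1.02 CPM in chow saline and 7.85, 5.98, 3.40, 17.0 and 2.54 CPM in HFD saline mice (log2 fold change 1.60 ± 0.40, adjusted p = 0.00553). *Mcm5* lay at 2.59, 5.24, 5.54, 4.77 and 3.49 CPM on chow and 10.7, 9.92, 6.67, 11.0 and 5.24 CPM on HFD (log2 fold change 0.96 ± 0.25, adjusted p = 0.00843). *Mcm3* lay at 4.75, 6.24, 5.99, 3.15 and 6.46 CPM on chow and 10.5, 10.5, 9.95, 12.0 and 5.40 CPM on HFD (log2 fold change 0.82 ± 0.23, adjusted p = 0.0129). HFD replicate 5 was the lowest of its group for each. *E2f1* lay at 1.73, 1.78, 3.67, 2.74 and 1.28 CPM on chow and 5.10, 5.82, 6.31, 4.01 and 2.86 CPM on HFD (log2 fold change 1.14 ± 0.32, adjusted p = 0.014).

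*Cdc20* lay at 1.19, 0.780, 1.52, 1.12 and 1.28 CPM on chow and 3.72, 2.68, 2.06, 5.01 and 1.43 CPM on HFD (log2 fold change 1.17 ± 0.36, adjusted p = 0.0222). *Top2a* rose from 3.87 ± 1.82 to 10.8 ± 6.28 CPM (log2 fold change 1.31 ± 0.42, adjusted p = 0.0275) and *Mki67* from 6.50 ± 3.99 to 16.3 ± 8.60 CPM (log2 fold change 1.20 ± 0.39, adjusted p = 0.0319), with both groups spread widely. Without HFD saline replicate 4, the smallest library, 7 genes were called, all higher. The count was 4 without HFD saline replicate 1 or chow saline replicate 4, 5 without HFD saline replicate 2 or chow saline replicate 5, and 6 without chow saline replicate 1.

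In CL-injected mice the HFD comparison called more of the 40 genes than any other. There were 28 higher and 0 lower, against 10.9% and 12.7% of all genes, with a median log2 fold change of 1.29 against -0.011, and 23 passed the 2-fold limit, against 5.35% of all genes. Higher were all 7 spindle genes, 6 of 7 checkpoint and anaphase genes, 6 of 8 mitotic cyclins and kinases, both chromosome proteins, 5 of 10 fork genes, 1 of 3 nucleotide genes and 1 of 3 G1/S genes. All 14 genes called in saline mice were among the 28 (50% of them), and the overlap of calls over all genes was not computed. Endothelial genes (6 of 7) were higher, at 917 to 1180 CPM on chow and 1483 to 1991 CPM on HFD, as were 2 of 8 macrophage genes, all 8 liver genes, at 0.83 to 2.02 CPM and 132 to 265 CPM, and all 3 epididymal genes tested, and their part in the result was not tested. Of the 28 genes 22 had no overlap between the groups, again a description of called genes without a share over all genes.

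*Foxm1*, whose gene overlaps the locus 4933413G19Rik on the same strand, lay at 1.47, 0.711, 1.66, 2.88 and 1.81 CPM in chow CL and 8.24, 8.83, 10.8, 14.9 and 9.45 CPM in HFD CL mice (log2 fold change 2.56 ± 0.36, adjusted p = 3.82e-06). *Cdc20* lay at 0.393, 1.66, 1.57, 0.937 and 1.21 CPM on chow and 5.04, 5.09, 5.53, 5.78 and 4.72 CPM on HFD (log2 fold change 2.18 ± 0.34, adjusted p = 1.43e-05). *Prc1* lay at 3.83, 3.20, 4.34, 4.54 and 3.19 CPM on chow, against the HFD values given above (log2 fold change 1.50 ± 0.24, adjusted p = 1.71e-05). Every HFD mouse was above every chow mouse for each gene named in this comparison. *Kif20a* lay at 2.46, 2.85, 3.33, 3.17 and 2.33 CPM on chow, with a mean of 7.30 ± 1.14 CPM on HFD (log2 fold change 1.36 ± 0.22, adjusted p = 1.92e-05).

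*Mcm5* lay at 2.65, 3.44, 4.34, 4.18 and 5.18 CPM on chow and 9.58, 11.7, 11.6, 10.9 and 11.1 CPM on HFD (log2 fold change 1.46 ± 0.25, adjusted p = 4.94e-05). *Kif23* lay at 1.08, 1.42, 1.85, 2.02 and 0.691 CPM on chow and 5.72, 7.30, 4.94, 5.12 and 6.36 CPM on HFD (log2 fold change 2.05 ± 0.35, adjusted p = 5.15e-05). *Mki67* rose 3.60-fold, from 7.83 ± 3.37 to 28.4 ± 5.00 CPM (log2 fold change 1.85 ± 0.37, adjusted p = 0.000325), and *Top2a* 3.77-fold, from 5.23 ± 2.89 to 20.04 ± 4.60 CPM (log2 fold change 1.91 ± 0.39, adjusted p = 0.00038). The count stayed between 23 and 28 when any 1 library was left out. The diet comparison of CL mice also differed in the set of libraries described above, and the 2 cannot be told apart.

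**Figure D4:**
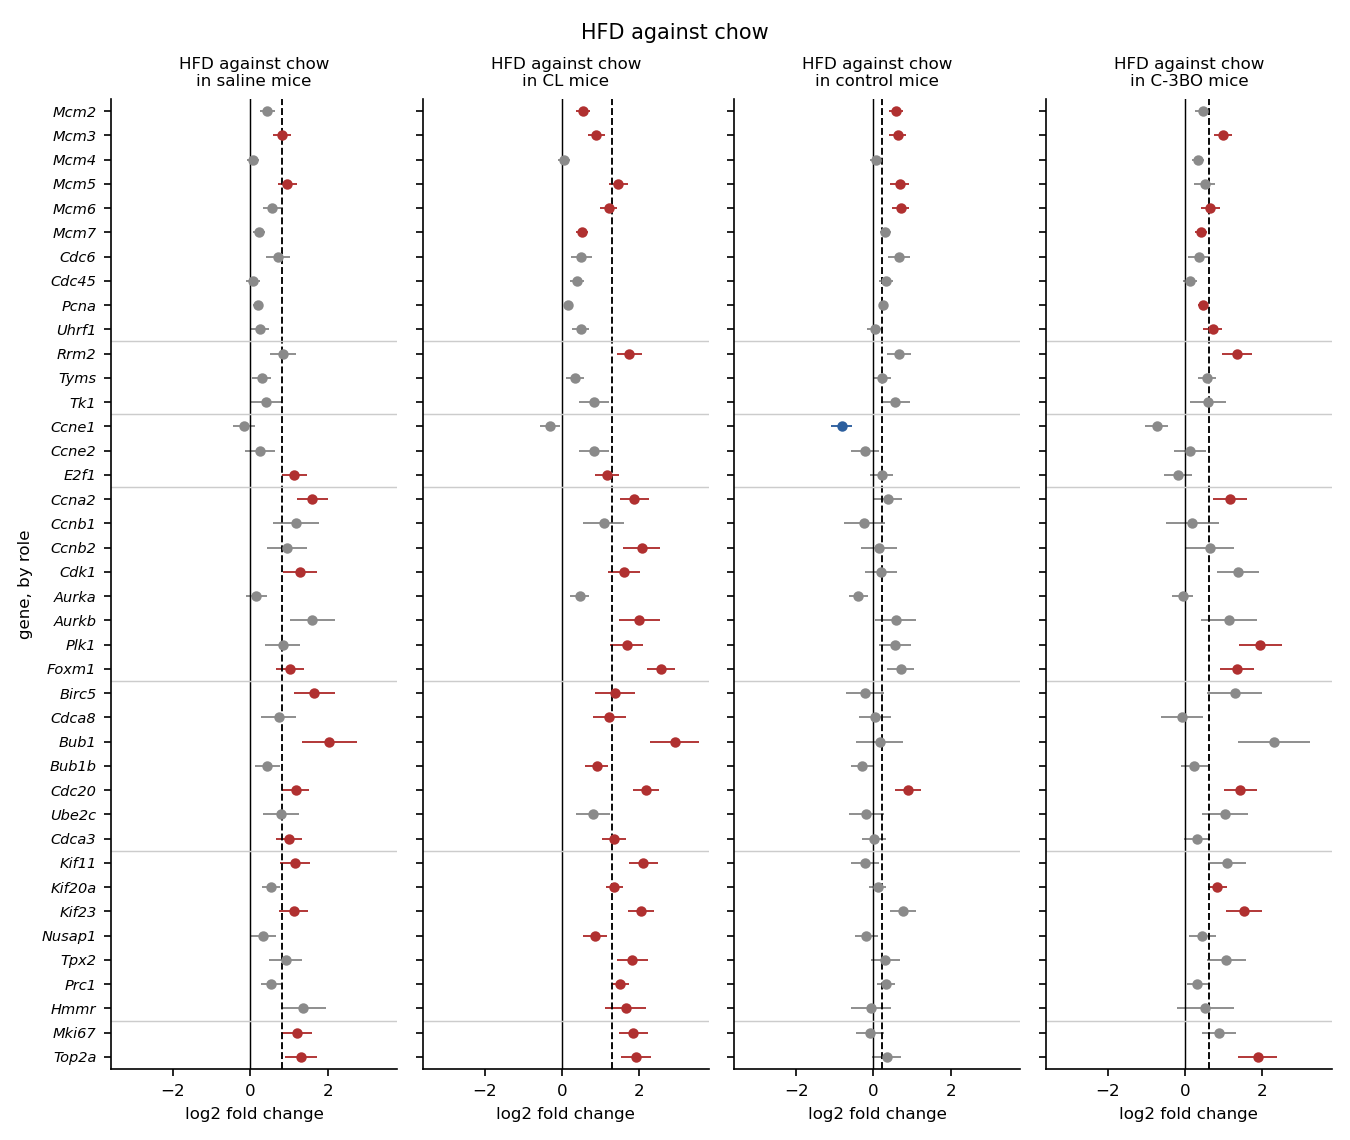
Log2 fold change (x axis, bars are SE) of each of the 40 genes (y axis, in order of role) for HFD against chow in saline, CL, control and C-3BO mice. Red points were called higher and blue points lower, the solid line is 0 and the dashed line the median, which lies at 0.83, 1.29, 0.21 and 0.62 from left to right.

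**Figure D5:**
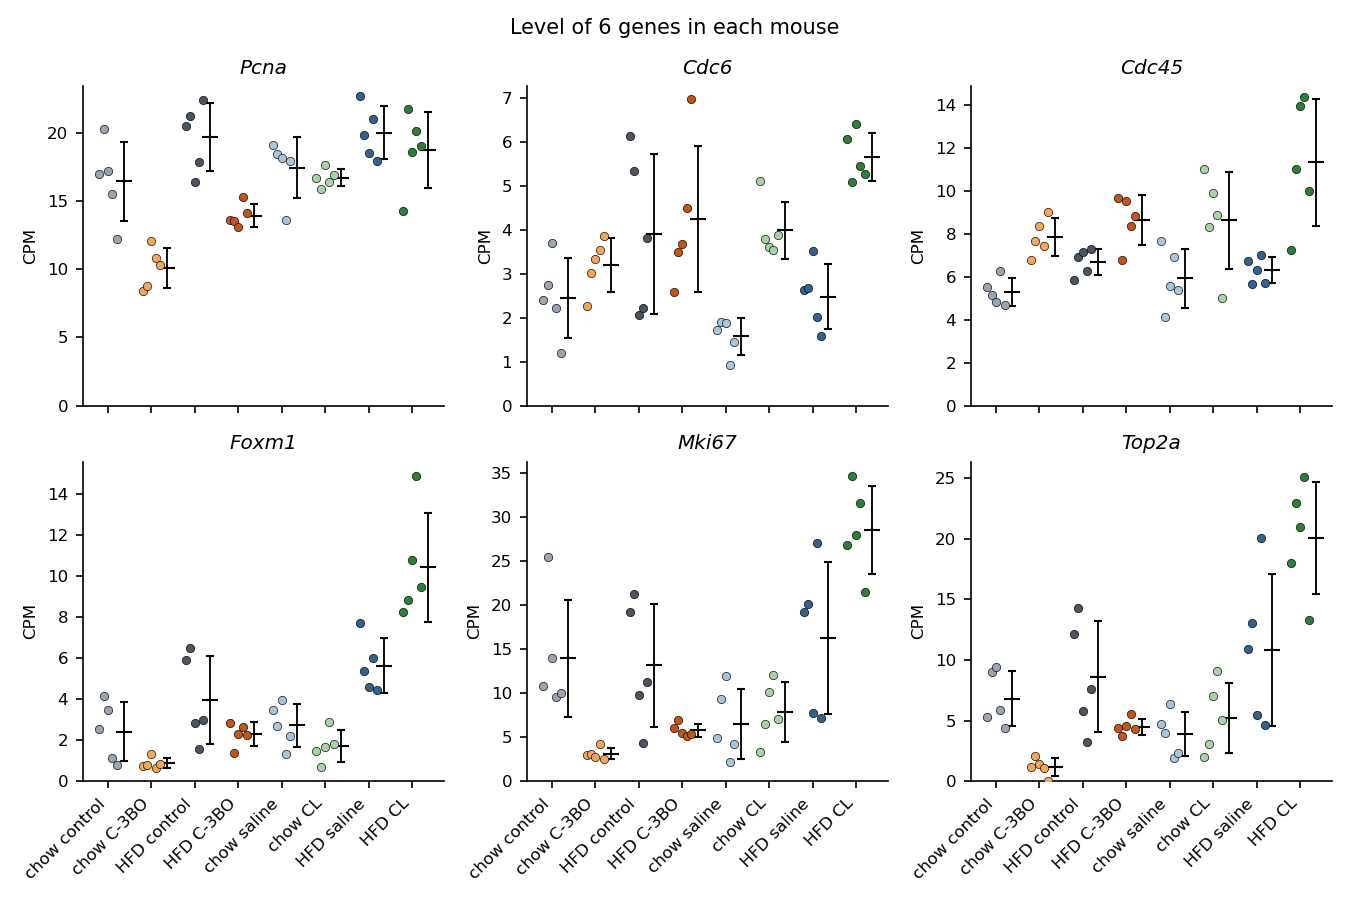
CPM (y axis) of *Pcna*, *Cdc6*, *Cdc45*, *Foxm1*, *Mki67* and *Top2a* in each mouse (points) of the 8 groups (x axis), with the group mean and SD beside the points. *Cdc45* is at 6.78 CPM or above in chow C-3BO mice and at 6.25 CPM or below in chow control mice, while the group means of *Mki67* and *Top2a* are lowest in chow C-3BO mice.

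Cyclin D1, which carries growth signals to the cell cycle, was lower in C-3BO mice and higher on HFD. *Ccnd1* lay at 56.3 ± 23.6 CPM in chow control and 20.9 ± 4.66 CPM in chow C-3BO mice (log2 fold change -1.42 ± 0.26, adjusted p = 6.92e-05), and at 86.8 ± 36.4 and 34.3 ± 3.88 CPM on HFD (-1.34 ± 0.26, adjusted p = 8.49e-05). CL left it at 27.4 ± 7.20 CPM on chow, against 27.8 ± 10.3 CPM with saline (-0.013 ± 0.26, adjusted p = 0.989), and it lay at 68.4 ± 6.86 CPM with CL on HFD, against 50.4 ± 13.4 CPM with saline (0.44 ± 0.26, adjusted p = 0.228). On HFD it was higher in all 4 kinds of mice, by 0.63 ± 0.25 in control, 0.71 ± 0.27 in C-3BO, 0.85 ± 0.26 in saline and 1.31 ± 0.26 in CL mice. In saline and CL mice diet cannot be told apart from the set of libraries with liver transcripts. Subtracting the effect of CL from that of C-3BO gave -1.41 ± 0.37, adjusted p = 0.0159 on chow and -1.78 ± 0.36, adjusted p = 0.00531 on HFD. The sign of the CL effect on chow, near 0, turned in 6 of the fits that left out 1 mouse.

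*Ccnd2* was lower in C-3BO mice, at -0.49 ± 0.15 on chow and -0.72 ± 0.15 on HFD, and lower on HFD in C-3BO (-0.45 ± 0.15), saline (-0.50 ± 0.15) and CL mice (-0.56 ± 0.15). It stood at -0.22 ± 0.15 in control mice on HFD, and at -0.18 ± 0.15 and -0.24 ± 0.16 with CL on chow and HFD, none of which passed. *Ccnd3* was lower in C-3BO mice on HFD (-0.56 ± 0.10) and on HFD in C-3BO mice (-0.35 ± 0.10). Its other log2 fold changes, none of which passed, were -0.12 ± 0.10 for C-3BO on chow, -0.21 ± 0.10 and -0.23 ± 0.10 for CL on chow and HFD, and 0.10 ± 0.095, 0.10 ± 0.10 and 0.073 ± 0.10 for HFD in control, saline and CL mice.

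The inhibitors of cyclin-dependent kinases did not move together. *Cdkn1a*, the p21 gene, was higher in C-3BO mice on HFD, at 91.6 ± 28.5 CPM against 38.3 ± 9.77 CPM in control mice (log2 fold change 1.25 ± 0.31, adjusted p = 0.00168), and its other log2 fold changes did not pass: 0.63 ± 0.31 for C-3BO on chow, 0.31 ± 0.30 and 0.72 ± 0.31 for CL on chow and HFD, and 0.18 ± 0.31, 0.80 ± 0.31, -0.11 ± 0.31 and 0.30 ± 0.30 for HFD in control, C-3BO, saline and CL mice. *Cdkn1b*, the p27 gene, was lower in C-3BO mice on chow (-0.61 ± 0.094) and HFD (-0.62 ± 0.094) and with CL on HFD (-0.56 ± 0.10). CL on chow left it at -0.21 ± 0.092 and HFD at -0.088 ± 0.092, -0.10 ± 0.10, 0.15 ± 0.094 and -0.20 ± 0.094 in the same order of mice, none of which passed. *Cdkn1c*, the p57 gene, was lower with CL on chow, at 23.0 ± 2.63 CPM against 42.7 ± 5.80 CPM with saline (log2 fold change -0.89 ± 0.18, adjusted p = 0.000546), and higher on HFD in control (0.81 ± 0.17), C-3BO (0.90 ± 0.18) and CL mice (0.67 ± 0.18). For C-3BO it stood at -0.32 ± 0.18 on chow and -0.23 ± 0.17 on HFD, for CL on HFD at -0.41 ± 0.18 and for HFD in saline mice at 0.18 ± 0.18.

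Of 35 regulators listed, 32 were tested. CL called 1 higher and 4 lower on chow (9.16% and 6.13% of all genes) and 3 higher and 4 lower on HFD (12.7% and 10.8%). C-3BO called 5 higher and 9 lower on chow (15.8% and 15.9%) and 5 higher and 8 lower on HFD (19.3% and 15.5%). *Myc*, which drives entry into the cycle, was lower in all 4 comparisons, at log2 fold changes of -1.34 ± 0.33 and -1.17 ± 0.36 under CL and -2.57 ± 0.38 and -2.05 ± 0.35 for C-3BO, chow first. *Trp53* was lower in all 4 as well, at -0.44 ± 0.14, -0.49 ± 0.15, -0.57 ± 0.14 and -0.49 ± 0.14 in that order, and *Rb1*, the retinoblastoma gene, with CL (-0.37 ± 0.12 and -0.37 ± 0.13). *Wee1*, the kinase that restrains CDK1, was higher with CL (0.64 ± 0.22 and 0.85 ± 0.24). *Mybl2*, the MYB partner of mitotic transcription, was lower in C-3BO mice (-1.52 ± 0.39 and -1.86 ± 0.40).

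*Rbl2*, the p130 pocket protein of the DREAM complex, was higher with CL on HFD (0.57 ± 0.11) and in C-3BO mice on both diets (0.46 ± 0.10 and 0.47 ± 0.10). *Cdkn2c*, an inhibitor of CDK4 and CDK6, was higher with CL on HFD (0.52 ± 0.17) and in C-3BO mice (0.52 ± 0.17 and 0.84 ± 0.17), and *Ccng2* in C-3BO mice (0.55 ± 0.15 and 0.75 ± 0.15). The other calls for C-3BO on chow were *E2f4* (0.33 ± 0.10) and *Cdc25a* (0.55 ± 0.21), higher, and *E2f5* (-0.43 ± 0.15), *E2f6* (-0.35 ± 0.13) and *Ccng1* (-0.47 ± 0.12), lower, and on HFD *E2f2* (0.81 ± 0.29), higher, and *E2f3* (-1.08 ± 0.19), lower.

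On HFD the regulators called were 6 higher and 6 lower in control (15.4% and 17.5% of all genes), 8 and 7 in C-3BO (13.5% and 12.2%), 2 and 4 in saline (7.45% and 8.04%) and 7 and 4 in CL mice (10.9% and 12.7%). *Cdk6*, a G1 kinase, was lower in all 4 kinds of mice, at -2.08 ± 0.27, -2.24 ± 0.29, -2.06 ± 0.32 and -2.89 ± 0.34 in that order, and *E2f7*, a repressor of E2F targets, was higher in all 4, by 1.02 ± 0.24, 0.96 ± 0.27, 0.89 ± 0.25 and 1.52 ± 0.25. Again the saline and CL comparisons hold the difference between sets of libraries too. Further called genes in control mice were *Cdk4* (0.38 ± 0.10), *E2f4* (0.38 ± 0.10) and *Cdc25b* (0.59 ± 0.21), higher, and *Cdkn2b* (-0.91 ± 0.30), *Rb1* (-0.56 ± 0.12), *E2f5* (-0.61 ± 0.15), *Ccng1* (-1.07 ± 0.12) and *Lin9* (-0.55 ± 0.19), lower. In C-3BO mice they were *Cdk2* (0.37 ± 0.13), *Cdkn2c* (0.59 ± 0.17), *E2f2* (0.87 ± 0.30), *E2f6* (0.42 ± 0.13) and *Cdc25b* (0.59 ± 0.21), higher, and *Rb1* (-0.53 ± 0.13), *E2f3* (-0.77 ± 0.20), *Ccng1* (-0.45 ± 0.12) and *Lin9* (-0.57 ± 0.20), lower.

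In saline mice they were *Rbl2* (-0.34 ± 0.10) and *Mdm2* (-0.35 ± 0.10), lower, and in CL mice *Cdkn2c* (0.75 ± 0.17), *Rbl1* (0.61 ± 0.22), *E2f4* (0.34 ± 0.10) and *E2f8* (2.09 ± 0.49), higher, and *E2f3* (-0.58 ± 0.19) and *Mdm2* (-0.30 ± 0.10), lower. Between effects, *Ccng1* passed for C-3BO across the diets (0.62 ± 0.17) and for C-3BO minus CL on chow (-0.57 ± 0.17), *E2f4* for C-3BO minus CL on chow (0.50 ± 0.15) and *Wee1* for the same on HFD (-1.18 ± 0.32).

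A list of 48 further replication and mitosis genes, of which 47 were tested, is given by its counts beside the shares of all genes, higher then lower. CL called 2 higher and 0 lower on chow (9.16% and 6.13% of all genes) and 5 higher and 1 lower on HFD (12.7% and 10.8%), where *Cenpe*, a kinetochore motor, stood at 1.23 ± 0.34 and *Kif2c*, a microtubule-depolymerising kinesin, at 1.60 ± 0.53. C-3BO called 0 higher and 26 lower on chow (15.8% and 15.9%) and 1 higher and 14 lower on HFD (19.3% and 15.5%), where *Espl1*, the separase gene, stood at -1.46 ± 0.35 and *Lig1*, the replicative ligase, at -0.87 ± 0.25. *Gmnn*, the inhibitor of origin licensing, was higher with CL on chow (0.88 ± 0.16). HFD called 2 higher and 4 lower in control (15.4% and 17.5%), 9 and 1 in C-3BO (13.5% and 12.2%), 6 and 0 in saline (7.45% and 8.04%) and 25 and 1 in CL mice (10.9% and 12.7%). *Pttg1*, the securin gene, was the 1 lower gene in CL mice (-0.38 ± 0.11) and was lower in C-3BO mice on both diets (-0.77 ± 0.10 and -0.60 ± 0.11).

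Between effects this list gave 0 calls for C-3BO and for CL across the diets, 10 lower for C-3BO minus CL on chow and 6 lower on HFD, all by the edgeR test.

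Markers of other cells in BAT are given by their counts, higher then lower, as measured facts. Preadipocyte and fibroblast genes (8 tested) were called 0 and 0 with CL on chow, 1 and 3 with CL on HFD, 0 and 2 for C-3BO on each diet, and 1 and 1, 2 and 0, 3 and 0, and 3 and 0 for HFD in control, C-3BO, saline and CL mice. Brown adipocyte genes (8 tested) were called 1 and 1 with CL on chow, 3 and 0 with CL on HFD, 4 and 1 in C-3BO mice on chow, 3 and 0 in such mice on HFD, and 3 and 1, 2 and 1, 1 and 0, and 1 and 1 for HFD in the same order of mice. Of the macrophage genes 1 was lower with CL on chow, 1 in C-3BO mice on HFD, and of the mural genes 1 was lower with CL on HFD. For C-3BO minus CL on HFD 5 liver genes were higher and 2 endothelial genes lower. Of the preadipocyte and fibroblast genes only *Cd34* passed, lower on chow (-1.50 ± 0.30, adjusted p = 0.00161) and on HFD (-1.72 ± 0.30, adjusted p = 0.0013). The others in that list went in both directions and mostly lay above 0. They ran from -0.24 (*Ly6a*) to 0.75 (*Pdgfra*) on chow and from -0.53 (*Pdgfrb*) to 0.97 (*Dpp4*) on HFD. The part of all these markers in the differences of the 40 genes was not tested. T cell (4 tested), B cell (4), neutrophil (2) and erythroid (1) genes gave 0 calls in any of the 8 comparisons, except 1 higher B cell gene with CL on HFD and 1 lower neutrophil gene for HFD in CL mice, and no thymocyte gene reached the filter.

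Across the 40 mice the 40 genes varied together only in part. After each gene's group means were taken out, the correlation of log2 CPM between 2 genes had a median of 0.25 over 780 pairs, and 637 were above 0. Among the 24 mitotic genes the median was 0.33 over 276 pairs, and among the fork genes 0.23 over 45 pairs. Between mitotic and other genes it was 0.21 over 384 pairs, close to that among the fork genes. Pairs share libraries, depth and scaling, so these values describe the mice and are not tests.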

How the data were processed

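Poly(A) RNA of brown adipose tissue was sequenced by the authors on a HiSeq 1500 after TruSeq library preparation, reads were aligned to mm9 with STAR, and exon reads of RefSeq genes were counted with HOMER and iRNA-seq. The deposited values are raw counts per gene. Tool versions and the strand setting are not given in the sources used here. The labels state the group of each mouse. Each p-value sets a difference between groups against the spread between mice within groups, estimated over all 40 libraries.

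The 40 genes and all lists were chosen with earlier results of these data known. Counts were tested with edgeR 4.0.16 and limma 3.58.1 in R 4.3.3: filterByExpr with a minimum count of 10, TMM factors, and 1 quasi-likelihood fit of 8 groups over all 40 libraries (32 residual degrees of freedom), with 8 comparisons and 4 differences between effects. Benjamini-Hochberg adjustment ran over all 13277 genes, and a gene was called at an adjusted p under 0.05. The named genes are the 6 with the lowest p among those called in each comparison, *Mki67* and *Top2a* everywhere, the D-type cyclins and CIP/KIP inhibitors, and any other regulator called. *Cdc45* for C-3BO on chow and the examples from other groups were chosen after their values were seen. Log2 CPM used a prior count of 2. Counting limits are 3 counts, 0.206 to 3.01 CPM over the libraries, and cover counting error only.

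The replicate numbers of the labels did not pair mice: the mean correlation of same-numbered mice was at most 0.172 in a comparison, and in no comparison was every pair above 0.1. Alternatives were DESeq2 1.42.0, other scalings, filters and limits, fits of the compared libraries alone with and without the block, and fits without single or doubted libraries, of which leaving out the 10 HFD libraries of injected mice was chosen after seeing the data. The fit was tested on simulated data. Promoters came from RefSeq (GRCm38.p6), and mm9 positions count from 1. Genes that overlap another, which include *Kif20a*, *Cdc20*, *Ccna2*, *Foxm1* and *Nusap1*, may share reads with it. Plots used matplotlib 3.10.9.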

Additional observations from a re-analysis of the deposited data

Results flagged for a closer look

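In 200 sets of 5 mice, the 8 groups for each of 24 genes given by mouse and for the mean level of the 40 genes, 12 held a mouse far from the other 4, where chance gives about 1 in 20. High values were 25.4 CPM for *Mki67* and 9.40 CPM for *Mcm6* in chow control replicates 2 and 3, 5.11 CPM for *Cdc6* in chow CL replicate 1, 3.40 CPM for *Kif11* in chow saline replicate 3, 2.87 CPM for *Cdca3* in HFD C-3BO replicate 5, 12.7 CPM for *Mcm2* in HFD CL replicate 2 and 3.56 CPM for *Plk1* in HFD control replicate 2. Low values were 4.13 CPM for *Uhrf1* in HFD saline replicate 5, 13.6 CPM for *Pcna* in chow saline replicate 4, 4.04 CPM for *Tyms* and 2.04 CPM for *Mcm5* in HFD C-3BO replicates 3 and 4, and 3.73 CPM for *Ccne1* in HFD CL replicate 2.

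The C-3BO effect and the CL effect differed in 14 genes on chow and in 7 on HFD by the test of the difference itself. On chow the differences of log2 fold changes, C-3BO minus CL, were -2.95 for *Top2a*, -2.42 for *Mki67*, -2.76 for *Birc5*, -2.36 for *Ube2c*, -2.29 for *Cdk1*, -2.28 for *Kif11*, -2.15 for *Kif23*, -2.003 for *Tpx2*, -1.75 for *Uhrf1*, -1.68 for *Rrm2*, -1.40 for *Bub1b*, -1.14 for *Prc1*, -0.68 for *Mcm4* and -0.64 for *Pcna*. On HFD they were -2.33 for *Kif23*, -2.14 for *Tpx2*, -2.10 for *Mki67*, -2.09 for *Prc1*, -1.93 for *Cdc20*, -1.87 for *Rrm2* and -1.31 for *Uhrf1*.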

How the results depend on the processing

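The counts of called genes in the 2 comparisons that led, 25 for C-3BO on chow and 28 for HFD in CL mice, stayed within 1.5 times under every alternative but the strictest filter. That filter, at least 10 counts in every library, left 7 of the 40 genes to test, of which CL called 0 on chow and 1 on HFD, C-3BO 5 and 4, HFD 3 in control, 4 in C-3BO, 3 in saline and 5 in CL mice, and C-3BO minus CL 3 on chow and 1 on HFD. With the 2-fold limit the counts were 1 and 6 for CL, 7 for C-3BO on HFD, 0 for HFD in control and 7 in C-3BO mice. With library totals alone, which moved the median of all genes by -0.23 to 0.21, CL called 1 and 5, and HFD 13 in control and 20 in C-3BO mice. Without a filter CL called 1 and 7, and HFD 9 in saline mice. DESeq2 called 11 for C-3BO minus CL on HFD. From the compared libraries alone HFD called 3 in control and 8 in saline mice, and C-3BO minus CL 9 on chow. With the replicate block the counts were 1 for CL on chow, 1, 7 and 1 for HFD in control, C-3BO and saline mice, and 6 for C-3BO minus CL on chow. Without HFD C-3BO replicates 4 and 5, C-3BO on HFD called 7, and without the HFD libraries of injected mice C-3BO minus CL on chow called 9. The mean log2 CPM of chow C-3BO mice was 0.588 with library totals alone and 0.447 with a prior count of 0.5, and that of HFD C-3BO mice 1.21 with that prior. The share of all genes called under each alternative is not set beside these counts or those with 1 mouse left out. They therefore show only how the calls of the 40 genes moved. The cause was not tested.

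When each mouse was left out in turn the counts ran from 1 to 3 and from 4 to 12 for CL on chow and HFD, from 20 to 26 and from 6 to 19 for C-3BO, from 3 to 9, 8 to 12, 4 to 16 and 23 to 28 for HFD in control, C-3BO, saline and CL mice, from 6 to 15 and from 2 to 13 for C-3BO minus CL, and from 0 to 0 for both effects across the diets. Of 2143 values of single genes under an alternative, 1918 kept their direction and side of the threshold and 17, none of them called, changed sign. These were *Mki67* for HFD in control mice (0.11 with library totals alone, from -0.33 to 0.25 with 1 mouse left out, 0.25 and 0.13 without chow control 2 and HFD control 4), *Cdkn1b* for HFD (0.071 in control and 0.083 in C-3BO mice with library totals alone), *Cdkn1a* for HFD in saline mice (0.076 with library totals alone, from -0.43 to 0.19 with 1 mouse left out, 0.19, 0.099 and 0.055 without chow saline 1, chow saline 5 and HFD saline 3), Ccnd3, HFD against chow in CL mice (from -0.0069 without HFD CL 4 to 0.12) and *Ccnd1* for CL on chow (0.0075 with the replicate block, from -0.17 to 0.15 with 1 mouse left out, 0.015, 0.055 and 0.15 without chow saline 1, 2 and 3, and 0.052, 0.067 and 0.028 without chow CL 1, 2 and 3).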
